A study of Caenorhabditis elegans with 2 samples.

Results

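Among the strongest candidate binding regions for the tagged nuclear hormone receptor NHR-90 in larvae of the nematode Caenorhabditis elegans, 639 (7.73%) had their summit inside protein-coding sequence and the other 7627 did not. A summit is the base of highest signal in a peak. These coding exon peaks were selected on the signal that the authors gave each of 30000 candidates called on pooled replicates, limited to 2 times as many ranks as the final list is long, and on the position of the summit in a coding exon (CDS) of a protein-coding gene in the Ensembl annotation of WBcel235. A further 27 summits in coding exons were left out because a tRNA, snRNA or snoRNA gene began nearby (a window reaching 1000 bp upstream and 200 bp downstream of its 5′ end). The authors' final list, thresholded on the irreproducible discovery rate and called optimal here, held 134 of the coding exon peaks, while 505 ranked below its end. Chromatin immunoprecipitation with sequencing (ChIP-seq) was done with an antibody against GFP on sonicated chromatin of whole hermaphrodite L1 larvae, which were starved after bleaching and collected 6 h after synchronisation. Both samples were of strain OP483 (unc-119(tm4063) III; wgIs483), in which a single stable transgenic line carries NHR-90 with a C-terminal GFP-FLAG tag. The 2 biological replicates form 1 group, a control library and an untagged strain are not analysed here, and the depth is unknown, since no counts come with the peaks. Comparisons were therefore made between sets of peaks and between the replicates, with no test, and 95% intervals are exact binomial ones that cover counting error over peaks only. Peaks that lie close together share reads and are not replicates.

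Nuclear hormone receptors are transcription factors with a zinc finger DNA-binding domain and a pocket for small lipophilic ligands, and the family is greatly expanded in C. elegans. Transcription factors are usually mapped to promoters and enhancers outside coding sequence, but nematode genes are compact, and coding exons can lie very near the start of their own gene or of the next one. L1 larvae that hatch without food arrest development and live on stored fat and carbohydrate. Whether the sampled larvae were still unfed and arrested when collected was not examined. The tagged gene and unc-119, which is mutant in the strain, were inspected at their own loci. No candidate of the whole pooled list had its summit within 10 kb of nhr-90, and of the 2 strong candidates within 10 kb of unc-119, 0 were in coding sequence.

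The sequences under the strongest coding exon peaks show what the rule picked up. Each line gives the summit base and 50 bases on each side, 5′ to 3′ on the strand of the host gene in build WBcel235 (ce11), cut back where untranslated exon bases began, with coding bases in capitals. The window at pks-1 (chrX:5429515-5429615, plus strand) was coding throughout. That at hmt-1 (chrIII:11091759-11091859, minus strand) and that at F01F1.3 (chrIII:5874426-5874526, plus strand) run from an intron into the last coding exon, and the one at lelo-2 (chrIII:1419976-1420037, minus strand) is the coding end of the gene.
pks-1: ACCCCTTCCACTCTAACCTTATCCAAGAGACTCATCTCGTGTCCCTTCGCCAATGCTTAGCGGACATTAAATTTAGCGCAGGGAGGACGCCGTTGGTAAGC
hmt-1: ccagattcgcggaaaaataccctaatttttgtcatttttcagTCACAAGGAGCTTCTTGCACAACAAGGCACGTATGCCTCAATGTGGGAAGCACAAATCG
lelo-2: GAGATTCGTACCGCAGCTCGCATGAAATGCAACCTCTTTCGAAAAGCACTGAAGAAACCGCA
F01F1.3: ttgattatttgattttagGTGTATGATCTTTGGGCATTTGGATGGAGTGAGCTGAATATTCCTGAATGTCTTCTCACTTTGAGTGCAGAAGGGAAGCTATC

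A pair of summit windows from different chromosomes were close copies of each other, which is why they are shown apart: R12C12.6 (chrII:6047786-6047886, minus strand) and K07C5.13 (chrV:10342182-10342282, plus strand). Over 64 aligned bases without a gap 59 were equal (92.2%), and capitals mark them. Each window also held an inverted repeat, with a perfect stem of 8 bases round a loop of 7 in R12C12.6 and of 7 bases round a loop of 9 in K07C5.13. Among all 639 windows only 3 pairs shared any run of 16 bases on either strand. Counting overlapping 16-base words, this pair shared 11, against 2 for ets-4 with tbce-1 and 1 for gpd-3 with uev-3. Longer shared stretches hold several such words, so these are not counts of separate stretches. The pair was chosen after its sequences were seen.
R12C12.6: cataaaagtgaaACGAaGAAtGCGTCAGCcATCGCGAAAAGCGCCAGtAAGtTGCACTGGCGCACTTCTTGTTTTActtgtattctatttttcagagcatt
K07C5.13: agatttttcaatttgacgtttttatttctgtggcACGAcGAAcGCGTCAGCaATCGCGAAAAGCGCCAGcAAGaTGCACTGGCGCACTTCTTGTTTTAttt

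The few coding exon peaks with a regulatory motif at the summit are shown next, the strongest that could be printed, with the motif in capitals on whichever strand it occurred. GAGACGCAG, which the zinc finger factor EOR-1 binds, was in nrfl-1 (chrIV:9121640-9121740, plus strand) and T16G1.18 (chrV:12951337-12951402, plus strand). GAGAGA was in pho-11 (chrII:9934014-9934114, plus strand) and ZK112.4 (chrIII:7729767-7729867, minus strand). The E-box CACGTG was in mig-21 (chrIII:5877038-5877138, minus strand) and pqm-1 (chrII:11151144-11151244, minus strand). AGGTCA, a hexamer bound by many nuclear receptors, was in snx-17 (chrX:13116535-13116627, minus strand) and apy-1 (chrX:7569060-7569160, minus strand).
nrfl-1: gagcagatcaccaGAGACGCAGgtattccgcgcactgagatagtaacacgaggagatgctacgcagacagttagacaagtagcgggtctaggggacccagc
T16G1.18: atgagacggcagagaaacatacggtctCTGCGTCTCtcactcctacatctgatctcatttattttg
pho-11: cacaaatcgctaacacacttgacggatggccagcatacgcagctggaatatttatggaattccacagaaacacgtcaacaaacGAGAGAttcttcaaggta
ZK112.4: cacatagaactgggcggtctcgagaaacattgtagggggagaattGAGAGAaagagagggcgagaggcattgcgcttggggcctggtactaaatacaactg
mig-21: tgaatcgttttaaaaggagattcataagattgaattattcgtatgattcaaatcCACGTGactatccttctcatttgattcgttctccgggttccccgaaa
pqm-1: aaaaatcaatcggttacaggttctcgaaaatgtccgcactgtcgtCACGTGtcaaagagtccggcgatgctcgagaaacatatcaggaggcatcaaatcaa
snx-17: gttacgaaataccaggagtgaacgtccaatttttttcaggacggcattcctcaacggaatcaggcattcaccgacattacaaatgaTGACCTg
apy-1: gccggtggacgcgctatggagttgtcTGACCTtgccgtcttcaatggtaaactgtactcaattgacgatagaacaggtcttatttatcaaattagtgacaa

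The strongest coding exon peak stood far above the rest. It lay in pks-1, which encodes a large polyketide synthase that takes part in making the nemamides, natural products with a role in survival of starved L1 larvae. The peak (chrX:5429344-5429794) had its summit in exon 22 of 30, 15755 bp from the nearest 5′ end of its own gene, and ranked 21 in the pooled list. Its signal was 980.4 in the pooled list, 549.3 in replicate 1 (rank 18) and 431.7 in replicate 2 (rank 32), so both replicates placed it near the top. No stronger summit lay within 411742 bp. The next, in Y18D10A.4, had a pooled signal of 365.6 (rank 357), with 194.6 in replicate 1 (rank 326) and 169.0 in replicate 2 (rank 387). Signals of separate lists are on scales that are not stated, so only ranks are compared between lists.

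In the order of pooled rank, R12C12.6 followed at rank 479 (signal 310.4, replicate ranks 381 and 686), with hmt-1, an ABC transporter needed for tolerance of cadmium, at 482 (310.2, replicate ranks 519 and 441). The suro-1 peak ranked 547 (290.5, replicate ranks 581 and 591), lelo-2 ranked 566 (284.7, replicate ranks 625 and 581) and F01F1.3 ranked 616 (268.5, replicate ranks 851 and 458). All of these ranked among the strongest 1000 in both replicates. K07C5.13 (rank 808) and T28F4.4 (970) did so in 1 replicate each, with ranks of 572 and 1299 in replicate 1 and of 1238 and 673 in replicate 2. The peak in C17G10.6 ranked 1002, but its summit was 203 bp from a stronger one and upstream of C17G10.10, and the replicate peaks that overlapped it ranked 230 and 439. A replicate rank is that of the strongest overlapping candidate, so a stronger neighbour can lend its rank.

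The other strong coding exon peaks were in rpb-7 (a subunit of RNA polymerase II), nhr-21 (a nuclear hormone receptor), F52B10.3, comt-1 (of the catechol O-methyltransferase family), F59B8.1, F09F7.5, F54D5.7, best-18 (of the bestrophin channel family), dos-3 (of the Notch co-ligand family) and F25B5.5. Their pooled signals ran from 184.3 at rpb-7 to 164.6 at F25B5.5. Over the 20 strongest, ranks ran from 18 to 2134 in replicate 1 and from 32 to 1927 in replicate 2. The summit lay in the last coding exon in 10 of the 20, in the first in 6 and in an internal one in 4. Chromosome III held 7 of them, the X chromosome 3 and chromosomes IV and V 1 each.

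Over all 639 the pooled signal ran from 39.0 to 980.4 with a median of 49.1, and the values that chose the members are given as a description. The median was 91.4 for the 134 in the optimal list and 46.0 for the 505 below it, against 72.1 for the 7627 candidates with the summit elsewhere. Since 50% of all candidates but 21.0% of the coding exon peaks (95% interval 17.9 to 24.3) were in the optimal list, most of the members are weak candidates. The members in the optimal list are those with a pooled rank within its length, so this share restates the pooled signal. At the rank limit the last members were W04C9.5 (rank 8260), ubq-1 (8264) and K01G5.8 (at the limit itself), each with a signal of 39.0. The first coding exon candidates beyond it were Y102A11A.9 (rank 8268, signal 39.0), ceh-21 (8275, 38.9) and rfc-3 (8330, 38.7). At the end of the optimal list, unc-33 (70.1), T05E7.1 (70) and nspg-11 (69.7) were the last members inside, and rde-2 (69.2), pyc-1 (69.0) and let-805 (68.6) the first outside.

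Coding exons were rare among strong candidates and their share grew down the ranking. Of ranks 1 to 2000, 1.75% (1.22 to 2.43) had the summit in a coding exon by the same rule, of ranks 2001 to 4000 4.60%, of ranks 4001 to 6000 8.65% and of ranks 6001 to 8000 14.6%. From rank 20001 to 30000 the share lay between 22.8% and 24.8% in each bin of 2000, and coding bases make up 24.4% of the genome. The pks-1 peak is thus 1 of 35 coding exon summits among the strongest 2000. The lists are described by the authors as holding background as well as peaks.

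**Figure D1:**
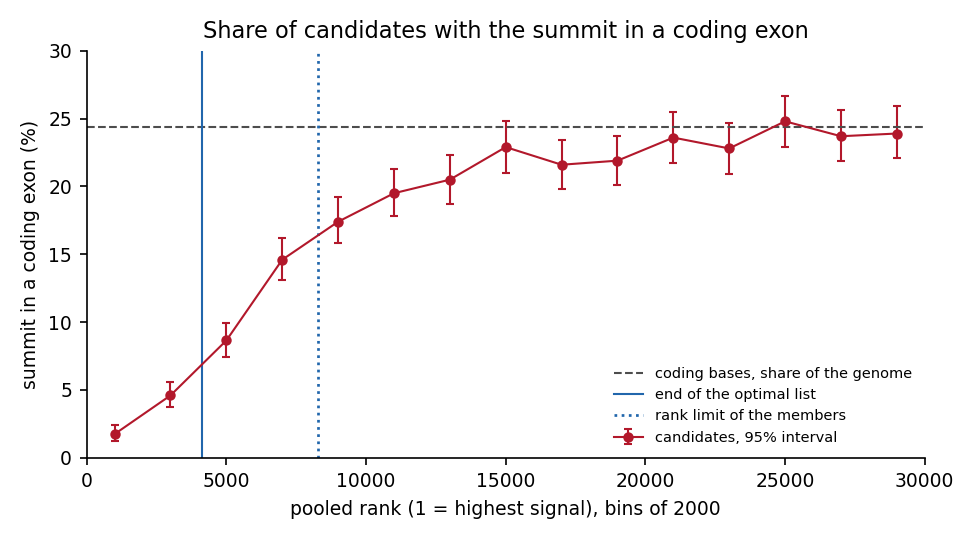
Share of candidates (%) with the summit in a coding exon, in bins of 2000 pooled ranks, with exact 95% intervals; the dashed line is the share of coding bases in the genome (24.4%) and the vertical lines mark the end of the optimal list and the rank limit of the members. The share climbs from 1.75% in the first bin to between 22.8% and 24.8% in the last 5 bins.

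Strong coding exon peaks ranked high in both replicates, while most of the weak ones overlapped a candidate in both but passed the rank limit in at least 1. Of the 134 in the optimal list, 132 (98.5%) overlapped a candidate of each replicate within the same rank limit. Of the 505 below it, 192 (38.0%, 33.8 to 42.4) did. Together that makes 324 of 639, or 50.7% (46.8 to 54.6), against 71.7% of all candidates, but coding exon peaks have lower ranks. At like pooled rank the shares were close: in the top band of 4 equal ones (ranks 1 to 2066) 37 of 37 coding exon peaks against 99.8% of the others, in the second 97.9% of 97 against 97.2%, in the third (ranks 4134 to 6200) 69.5% of 190 against 68.4%, and in the last 19.0% of 315 (14.9 to 23.8) against 21.6%. No candidate of any rank overlapped 12 of the coding exon peaks in replicate 1 and 14 in replicate 2. The optimal list was made from both replicates, so its overlap with them is not independent.

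**Figure D2:**
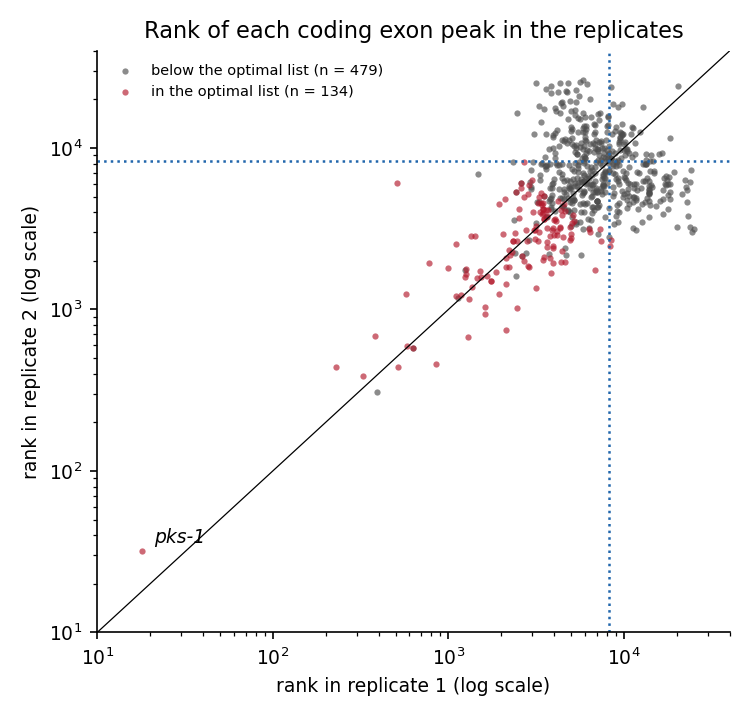
Rank of each coding exon peak in replicate 1 (x axis, log scale) and replicate 2 (y axis, log scale), coloured by membership of the optimal list, with the rank limit dotted and equal ranks as a line. The pks-1 peak, at ranks 18 and 32, stands apart, and the 479 peaks below the optimal list that overlapped a candidate in both replicates form a cloud round the limit.

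The correlation of replicate ranks was higher across the strong members than across the weak ones, whose pooled signals span only 39.0 to 69.2. Spearman's rho between the replicate ranks was 0.482 across the 134 in the optimal list, -0.056 across 479 below it, 0.367 across the 613 matched in both replicates and 0.761 across 8093 matched candidates of all kinds. These values are across peaks, which share the libraries and were chosen by their pooled signal, and that choice narrows the range of ranks in each set. Within a narrow band of pooled signal, a high rank in 1 replicate tends to pair with a low rank in the other. The value below the optimal list therefore cannot measure how well the replicates agree there. The 2 ranks differed by more than 2-fold for 31.5% of the matched members and 21.5% of all matched candidates. Members rank lower than candidates at large, and the share was 20.9% for those in the optimal list and 34.4% for those below it. Among members in the optimal list the widest gap was at ltd-1, a LIM domain protein, with ranks 507 and 6102 and a stronger summit 202 bp away. It was followed by clec-221 (6865 and 1745), apb-3 (8362 and 2477), twk-34 (8458 and 2689) and atg-7 (2706 and 8195). The apb-3 and twk-34 peaks, in a subunit of an adaptor complex and a potassium channel gene, were the 2 of the optimal list that fell past the rank limit in a replicate.

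Coding exon peaks lay towards the 2 ends of their host genes, and more so the stronger they were. The first coding exon held the summit in 27.9% of all members (24.4 to 31.5) and in 38.8% of those in the optimal list (30.5 to 47.6), while first coding exons make up 10.9% of coding bases. The last coding exon held 25% (21.7 to 28.6) and 32.8% (25 to 41.5), against 15.3% of coding bases. Internal exons, with 72.9% of coding bases, held 45.4% and 26.9%, and genes with 1 coding exon held 1.72%. The shares of coding bases are over all coding genes and were not adjusted for gene length. Median coding length was 1052 bases for members in the optimal list and 1290 for those below it. In the 781 coding exon candidates of the ranks just past the limit, as many ranks as the optimal list is long, the shares were 18.6% first, 59.8% internal and 20.5% last, between those of the members and those of coding bases. Members in first coding exons included Y18D10A.4, rpb-7, nhr-21 and col-10, a cuticle collagen, with its summit 19 bp from its own 5′ end. Those in last coding exons included hmt-1, suro-1, dos-3 and the alcohol dehydrogenase gene sodh-2.

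Measured along the coding sequence cut into 10 equal stretches, 27.6% of the optimal members fell in the first stretch (37) and 23.1% in the last (31), and from 3 to 15 in each of the others. The summits in first coding exons were a median of 54.5 bp from the first coding base (178 members). The 127 in last coding exons and outside every 5′ window were a median of 82 bp from the last coding base and 203 bp from the annotated 3′ end, with 114 of them within 500 bp of it. The peaks are mostly 400 bp wide (95.3%), so many extend past the exon: a median of 59.8% of a member's bases were coding.

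**Figure D3:**
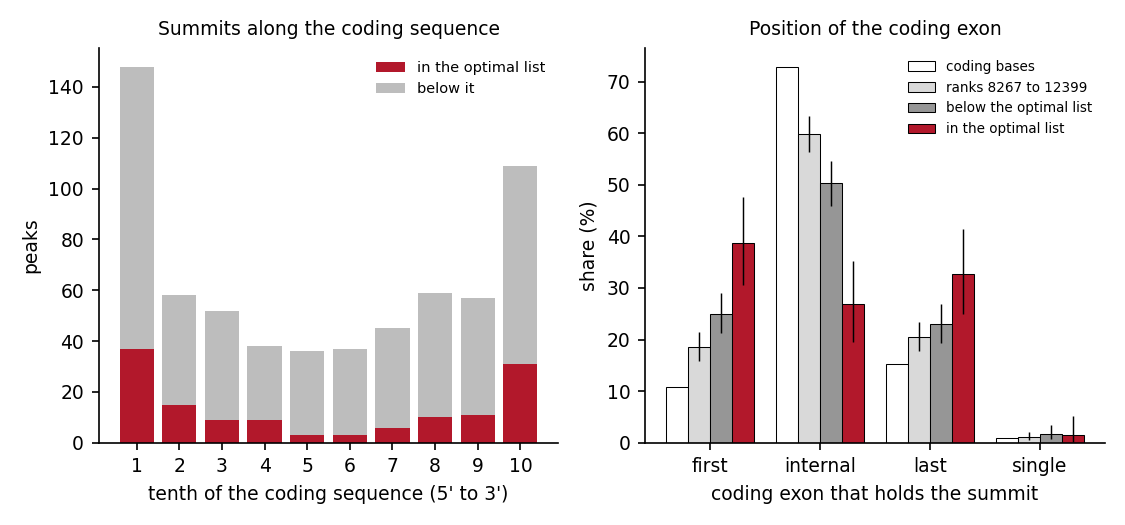
Left, number of coding exon peaks by stretch of the host's coding sequence (10 equal ones), with those in the optimal list in red; right, share (%) of summits in first, internal, last and single coding exons for peaks in and below the optimal list and for the ranks just past the limit, with exact 95% intervals, beside the share of coding bases. The first stretch holds 148 peaks and the last 109, and internal exons fall from 72.9% of coding bases to 26.9% of optimal peaks.

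Many members lay near an annotated start. The window of the same size at a 5′ end of the host gene itself held 242 members (37.9%), of which 62 were in the optimal list. Another 35 lay in the window of a different coding gene, 20 in that of a noncoding gene only, and 342 (53.5%, 49.6 to 57.4) in none, against 34.6% of all candidates in none. Outside the windows of coding genes lay 56.7% of members (52.7 to 60.5), compared with 46.8% of all candidates. Coding bases give another reference: 23.1% of them lie inside such a window, a smaller share than the 37.9% of members in their own gene's window alone. The members in their own gene's window had their summit a median of 63.5 bp from the nearest 5′ end. Of the 5 strongest members outside all windows, pks-1, hmt-1, suro-1, F01F1.3 and T28F4.4, 3 were in last coding exons. Many transcripts of nematodes are trans-spliced, so an annotated 5′ end can lie downstream of the true start.

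Host genes often had another strong site near their start. The 639 peaks fell in 592 genes, 2.96% of the 19973 nuclear protein-coding genes, with a median coding length of 1209 bases against 987 for all. Of these hosts 184 (31.1%) had another optimal summit in their own window, compared with 14.7% of all coding genes, and the difference was not tested. A stronger summit lay within 500 bp of 43 members (6.73%), close to the 6.51% of all candidates when ranks are mixed. In the optimal list the share was 5.97% of members (2.61 to 11.4) and 3.6% of the other candidates. Below the list it was 6.93% and 9.67%. The sequence at the summits was nearly always single copy: the 31 bases centred on it occurred once in the genome for 637 of 639. The exceptions were gpd-3, one of a set of near-identical glyceraldehyde-3-phosphate dehydrogenase genes, and the F-box gene fbxa-24, each with 2 copies.

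Several members in the same gene were found in 40 hosts, 34 with 2 and 6 with 3 or more. The mitochondrial NAD kinase gene nadk-2 had 4, with pooled signals of 74.0, 53.8, 46.1 and 40. The summits of the ones at 74.0 and 46.1 were 199 bp apart and overlapped the same replicate peaks, ranked 3481 and 5051. The others with 3 were icl-1, acer-1, let-805 (myotactin, which links muscle to the epidermis), mtm-3 (a myotubularin lipid phosphatase) and mif-2 (related to macrophage migration inhibitory factor). At mif-2 the 3 signals were 105.0, 74.8 and 41.8, with the last 207 bp from the first. At let-805 and mtm-3, none of the 3 was in the optimal list or in a 5′ window of a coding gene. Signals there ran from 68.6 to 41.4 and from 46.3 to 41.3.

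Genes for carbohydrate and glyoxylate metabolism were noticed among the hosts. Because these 2 lists were drawn up after their values were seen, their counts are descriptions only. Of 24 genes of glycolysis and gluconeogenesis 6 held a coding exon peak (25%), where 2.96% of all coding genes did. The strongest was in aldo-2, which encodes fructose-bisphosphate aldolase, 164 bp from its 5′ end (pooled signal 130.4, rank 1914, replicate ranks 1874 and 1701). The next were gpd-3 (123.5, replicate ranks 2303 and 2277) and pck-2, a phosphoenolpyruvate carboxykinase gene (72.7), whose summit lay 211 bp from a stronger one. Below the optimal list, pyc-1 (pyruvate carboxylase, 69.0 and 39.8), pck-1 (56.3) and enol-1 (enolase, 45.9) followed, and the enol-1 peak had ranks of 5314 and 22827 in the replicates.

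Of 24 genes listed by symbol for enzymes of the citric acid and glyoxylate cycles 4 were hosts (16.7%), beside the same 2.96% of all coding genes. Whether each listed enzyme works in the cycle itself or elsewhere in the cell was not examined. The gene icl-1 encodes the bifunctional glyoxylate enzyme, with isocitrate lyase and malate synthase activity, which lets worms make sugar from fat. It had 3 members: a signal of 135.5 in its last exon (replicate ranks 3159 and 1367), upstream of fbxb-72 and 305 bp from a stronger summit, 80.8 in exon 3 (ranks 2457 and 2664) and 40.3 in exon 4 (ranks 4576 and 4260). The isocitrate dehydrogenase gene idh-1 (52.2), the malate dehydrogenase gene mdh-1 (51.8) and the citrate synthase gene cts-1 (45.9 and 40.5) had peaks below the optimal list only. The idh-1 summit was 971 bp from the strongest coding exon peak of chromosome IV, in the neighbouring F59B8.1 (176.9), which was itself 444 bp downstream of an idh-1 5′ end. At aldo-2 the nearest stronger summit, 782 bp away, was the one in the last exon of the adjacent mig-21 (141.2), upstream of aldo-2. The second pck-2 peak (48.6) lay 1026 bp from that in suro-1. Unlike the mig-21 summit, the suro-1 summit was downstream of the neighbour's start, 2274 bp from a pck-2 5′ end.

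Of 20 gene lists chosen by symbol, 9 had a share of hosts above that of all coding genes (2.96%), 6 had a lower share and 5 had no host. No list was tested, and with few hosts per list the shares are imprecise. The shares are per gene and were not adjusted for coding length, so a list of short genes can read low. The vacuolar ATPase, the proton pump of lysosomes and other compartments, had 4 of 20 genes as hosts (20%): vha-20 (72.4), vha-2 (47.3), vha-15 (42.3, with no overlapping candidate in replicate 1) and vha-11 (41.8). Proteasome subunits had 4 of 33 (12.1%), led by pbs-5 (84.6) and pas-1 (46.4), and chaperones 5 of 62 (8.06%), led by the mitochondrial Hsp70 gene hsp-6 (54.5), with none in the optimal list. The lipid and polyketide list had 6 of 80 (7.5%), with pks-1 followed by the fatty acid elongase gene elo-7 (97.9) and the acyl-CoA dehydrogenase gene acdh-1 (58.4). The ubiquitin system had 3 of 48 (ubc-9, ubc-3 and the polyubiquitin gene ubq-1), from 49.4 to 39.0.

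Genes of the nuclear hormone receptor family had 9 hosts of 269 (3.35%) with 11 members. The nhr-21 summit lay 2 bp from its own 5′ end (signal 184.0, replicate ranks 1619 and 939) and nhr-137 followed with 72.2 (ranks 5046 and 3408), while nhr-19 (64.7, ranks 3046 and 8218) was below the optimal list. Collagen and cuticle genes had 7 of 194, with col-10 (149.0), col-103 (96.0) and col-42 (46.1) in front. Oxidative phosphorylation had 2 of 62 (ucr-11 at 84.1 and atp-1 at 48.7), RNA binding and splicing 2 of 57 (snr-3 at 58.7 and prp-18 at 51.4) and cilia 1 of 47 (dli-1 at 39.6).

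Cytosolic ribosomal protein genes had 2 hosts of 81 (2.47%), rpl-15 and rpl-16. These genes are short: the list makes up 0.161% of coding bases and held 0.469% of members (3). Both rpl-15 peaks (55.4 and 51.8) and the rpl-16 one (46.8) lay in the 5′ window of a neighbouring coding gene, and none was in the optimal list. Large families of chemosensory receptors and F-box or BTB-MATH proteins had low shares, with 6 of 1309 (0.458%) and 2 of 417 (0.480%). In these, srt-47 (79.4) was the strongest receptor host, ahead of srbc-58 (62.9) and srg-39 (51.4), and the F-box hosts were fbxa-24 (42.6) and fbxa-86 (42.5). Lectins and antimicrobial genes had 4 of 290, led by clec-221 (97.7) and clec-264 (68.5), and detoxification enzymes 3 of 185, gst-40 (101.1), cyp-43A1 (90.7) and ugt-47 (47.0). Translation factors and tRNA synthetases (71 genes), histones (80), homeobox and bHLH factors (93), muscle structure (35) and extracellular matrix (15) had 0.

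Chromosome III carried the most members for its coding sequence, and the X chromosome held a smaller share of them than of the other candidates. Chromosome III had 124 (35.3 per Mb of coding sequence), IV 111 (28.3), II 107 (26.2), V 131 (23.7), X 80 (22.9) and I 86 (22). X thus held 12.5% of the coding exon peaks (10.1 to 15.3) and 14.3% of coding bases, while 20.3% of all candidates were on X. In the top band of ranks the share on X was 10.8% of members and 19.9% of the other candidates, and in the lowest it was 13.0% and 20.2%. Among X members, pks-1, F52B10.3 and comt-1 were the strongest.

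GAGAGA and GAGACGCAG were more frequent at the summits of the other candidates than in their flanks, and in the coding exon peaks as a whole both were near their flanking level. Each motif was sought on both strands within 50 bp of the summit and in windows of the same length centred 300 bp to either side. GAGAGA was found at 7.20% of member summits (5.32 to 9.49) and in 7.20% of their flanking windows, while all candidates had it at 18.8% of summits and those with the summit elsewhere at 19.8%, with 6.44% in their flanks. GAGACGCAG was at 4 member summits (0.626%, 0.171 to 1.59), with 0.469% in the flanks, against 5.34% of all candidates. Of these 4, 3 were among the 134 in the optimal list (2.24%, 0.464 to 6.4, with 0.746% in their flanks) and 1 among the 505 below it (0.198%). The 4 were Y18D10A.4 (365.6), nrfl-1 (107.7), which encodes a PDZ protein of the NHERF family, C48E7.1 (96.1) and T16G1.18 (53.9). A window can hold both motifs and then counts for each. No test of these differences was made.

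**Figure D4:**
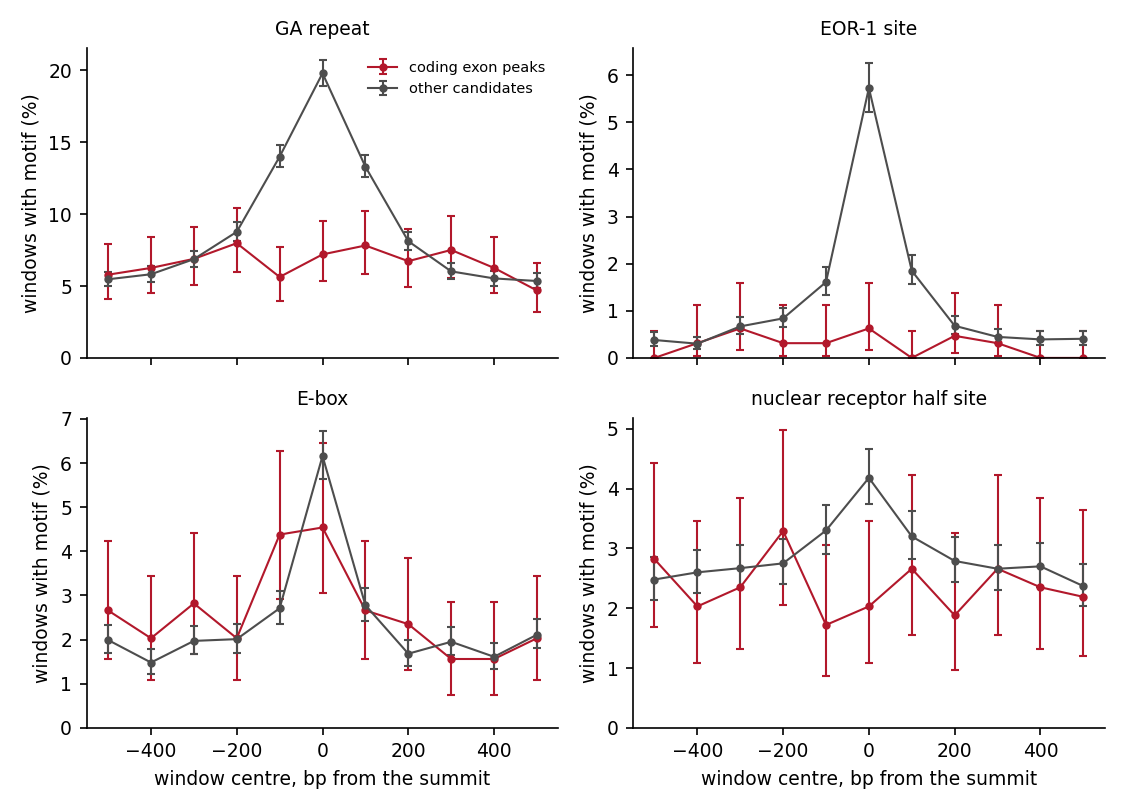
Share (%) of windows reaching 50 bp to each side that hold a motif on either strand, by distance of the window's centre from the summit in bp, for the 639 coding exon peaks and the 7627 other candidates, with exact 95% intervals; GA repeat is GAGAGA, EOR-1 site GAGACGCAG, E-box CACGTG and the lower right panel AGGTCA. The other candidates peak at the summit, at 19.8% for the GA repeat and 5.73% for the EOR-1 site, while the coding exon peaks stay between 4.69% and 7.98% and at or below 0.626%.

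For GAGAGA the gap was present in each of the 4 bands of pooled rank. In the top band, 2 of 37 coding exon peaks (5.41%, 0.661 to 18.2) had GAGAGA against 24.3% of the other candidates, and in the second it was 7 of 97 (7.22%, 2.95 to 14.3) against 23.2%. In the lower bands the values were 9.47% against 18.3% and 6.03% against 12.3%. GAGACGCAG was at 2.7% of members (1 of 37, 0.0684 to 14.2) against 8.33% of the others in the top band. In the second band it was at 2.06% (2 of 97, 0.251 to 7.25) against 6.5%. Both intervals include the share of the other candidates. In the lower bands the values were 0.526% against 4.9% and 0% against 2.74%. The members with GAGAGA of highest signal were Y18D10A.4, pho-11 (140.8), of an acid phosphatase family, and ZK112.4 (112.2).

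**Figure D5:**
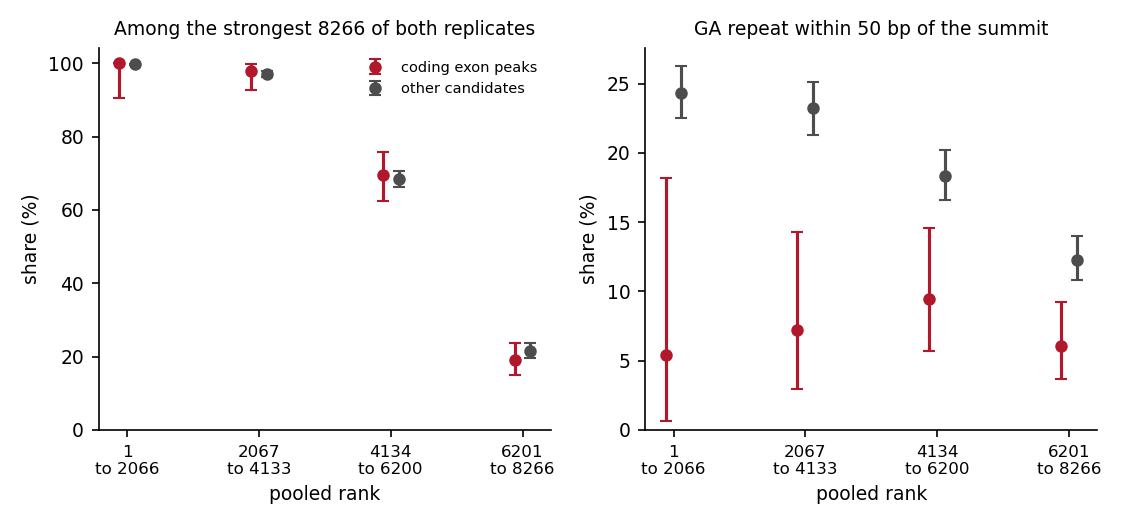
Left, share (%) of peaks that overlapped a candidate within the rank limit in both replicates and, right, share (%) with the GA repeat within 50 bp of the summit, for coding exon peaks and other candidates in 4 bands of pooled rank, with exact 95% intervals. The left-hand shares lie together in each band (97.9% and 97.2% in the second), while on the right the coding exon peaks stay below the others (7.22% and 23.2%).

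The E-box CACGTG was found at more member summits than flanking windows 300 bp away, a difference that was not tested. It was in 4.54% of summit windows (3.06 to 6.45) and 2.19% of flanking ones (1.46 to 3.15), where all candidates had 6.04% at the summit. Windows centred 100 bp away held it in 4.38% of members on the left and 2.66% on the right. In the other candidates these shares were 2.71% and 2.78%. By pooled rank, from the top band down, it was at 2.7% (1 of 37), 7.22%, 4.21% and 4.13% of member summits. In the other candidates the shares were 9.12%, 7.26%, 4.85% and 2.91%. The strongest members with it were mig-21 (141.2), named for a role in cell migration, Y71F9AL.8 (99.9) and pqm-1 (99.5), itself a zinc finger transcription factor. CTTATCA, a site of the gut ELT factors, gave the same counts as the E-box, 4.54% and 2.19%, beside 6.98% of all candidates, with best-18 (171.2), C40H1.7 (102.1) and Y51A2D.13 (96.2) in front. The hexamer AGGTCA was in 2.03% of member summits (1.09 to 3.45), 2.50% of their flanks and 4.02% of all candidates. In the optimal list it was at 3.73% of member summits (5 of 134, 1.22 to 8.49) and in 1.87% of their flanks. Below the list these shares were 1.58% (0.686 to 3.1) and 2.67%. The other candidates had it at 4.23% of summits in the list and 4.13% below it. These differences were not tested. The members with AGGTCA of highest signal were snx-17, a sorting nexin gene (123.3), apy-1, an apyrase gene (113.3), and srlf-1 (95.7).

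Trinucleotide repeats were at least as frequent at member summits as at those of all candidates. CAGCAG was at 5.79% of member summits, 4.3% of their flanks and 5.08% of all candidates, with rpb-7, F09F7.5 and dos-3 in front, and GAAGAA at 16.1% (13.4 to 19.2), 13.2% and 12.6%, with R12C12.6, lelo-2 and C17G10.6 in front. Of all 6-letter words, those with the largest excess of summits over flanks in the members were CGACGA (9.23% and 3.83%), AATGGA (13.8% and 8.45%), ATCATC (11% and 6.18%), CAATGG (9.39% and 4.62%) and CCATCG (8.14% and 3.36%). They were picked on these same windows and carry no test. In the other candidates CGACGA was at 4.58% of summits and 3.10% of flanks, and the leading words there were GAGAGA and its overlapping neighbours. Median GC content within 50 bp of the summit was 42.6% in members and 41.6% in the other candidates, but the difference turned with rank. In the top band of ranks it was 41.6% in members and 47.5% in the others, and in the last band 42.6% and 36.6%.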

How the data were processed

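The 2 samples are biological replicates of 1 group, taken from the labels. Per the file listings deposited with them, the authors derived a list of candidate peaks and background from each replicate and a control, 1 from both replicates pooled, and the optimal list with a threshold on the irreproducible discovery rate. Neither aligner nor peak caller is named in the sources used here. The signal of each peak is the authors' value on an unstated scale, and the q-value is deposited as −log10 q and was not used for ranking. Ties in signal were broken by position. Lists were read in build ce11 (WBcel235), 1-based, and the ce10 lists were not used.

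Summits were placed on Ensembl release 115, with sequence from the RefSeq assembly of the same build. Where several transcripts had the base in a coding exon, the one with the longest coding sequence gave the exon. Windows of 5′ ends leave out piRNAs. A replicate rank is that of the strongest candidate overlapping by 1 bp or more. Positions, motif search and overlap were tested on simulated data. Shares have exact (Clopper-Pearson) 95% intervals, which cover counting error over peaks only. Read depth is unknown. Python 3.11.15, pandas, numpy and scipy were used.

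The members, the 20 gene lists and the 7 motifs were chosen with earlier results of these data known, and 2 lists were added after seeing the hosts. Genes were named by rule: hosts of the 20 strongest members, of the 5 strongest outside all windows, of the strongest per chromosome, of 3 or more members, of up to 3 members per list and per motif, of members beside each threshold, and of the 5 optimal members whose replicate ranks differed most. A few others, such as vha-11, pck-1, cts-1, sodh-2 and fbxb-72, were named after their values were seen. Alternatives were other rank limits, the peak midpoint, other windows and overlaps, and each replicate alone.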

Additional observations from a re-analysis of the deposited data

How the results depend on the processing

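Of 104 recomputed values, 79 stayed within the main value's 95% interval, or within 1.5 times for the count, or within 0.7 percentage points for GC, the SD between the replicate lists. The rank limit moved most: limited to the length of the optimal list, and at 3 times that, there were 134 and 1420 members, of which 100% and 9.44% were in the optimal list, 47.8% and 62.2% outside coding windows and 98.5% and 27.3% among the strongest of both replicates. The 134 are the same peaks as the members in the optimal list, so the 100% and 9.44% follow from the ranking alone. At the length of the optimal list, GAGACGCAG was at 2.24% and AGGTCA at 3.73% of summits. With coding windows of 500 and 2000 bp upstream, 60.7% and 44.4% of members lay outside them, and the share of all candidates was not recomputed for these windows. Requiring 50% of the member to overlap gave 43.5% in both replicates, and using as many ranks of each as the optimal list has gave 15.8%. With 25 and 100 bp on each side of the summit, shares followed the length searched: GAGAGA 3.29% and 13.8%, CACGTG 2.66% and 8.14%, AGGTCA 0.939% and 3.91%. Median GC was 39.8% with 100 bp on each side and 43.6% for summits at least 10 bp inside the exon. With either replicate alone, counts were 708 to 724, 57.3% to 61.3% lay outside coding windows, 46.7% to 48% were among the strongest of the other replicate, and median GC was 42.6% to 43.6%. The causes were not tested. The midpoint rule, the small RNA windows and the neighbour rule left each of the 10 results within its interval or limit. No paired analysis was possible because there is 1 group. Without counts or a control library, the depth behind a weak peak cannot be judged, and most members are weak.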
